A study of Mus musculus with 6 samples.

Results

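The wild-type (WT) mouse retina at embryonic day 14 is described here across all genes measured: which genes were bright, which were dim, and which differed among embryos. The members are the 3 retinas labelled OC1-WT, of 6 in the series, which also holds OC1-KO retinas that are not described. Each WT retina came from a different embryo, numbered 1 to 3, and was read on 1 Affymetrix Mouse Genome 430 2.0 array; the sample labels give day 14 and the series design E14.5. The WT embryos were littermates in a line in which the null Onecut1 (OC1) allele, made in R1 embryonic stem cells, had been put into a Swiss strain and then crossed to C57Bl/6 for a few generations. They carry no mutant Onecut1 allele by their labels, were not treated, and are of mixed genetic background, so that they may differ from each other at many loci. Embryos were not pooled, and the wording of the labels of WT embryo 3 differs from that of the other two.

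At this age the mouse retina is a sheet of dividing progenitor cells from which the first neurons are leaving. Retinal ganglion cells, horizontal cells, cones and the first amacrine cells are born before birth, while most rods, bipolar cells and Müller glia, the radial support cells, are made later. The progenitors are kept in cycle by transcription factors such as Pax6, Lhx2 and Sox2 and by Notch signalling, and a transient burst of Atoh7 (also called Math5) marks cells that become competent to form ganglion cells. The lens, the pigment epithelium, blood vessels, blood and the mesenchyme and muscle around the eye lie beside the retina and can be taken along when it is dissected.

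The level of a gene is given here as the log2 of its MAS5 signal, the array's measure of brightness, on the brightest of the probe sets that match that gene alone; a difference of 1 is a 2-fold difference in signal. Errors are SD over the 3 embryos (n = 3) throughout, and with 1 group of 3 no test was made. Of 18193 genes measured, 10415 (57.2%) had a mean log2 signal over 7, the limit that the study's methods use to set aside low signals. The mean levels ran from -1.37 to 15.15 with a median of 7.94. The brightest 10% of genes, 1820 in all, lay above 11.36. The 100 brightest genes held 11.8% of the summed linear signal and the 1000 brightest held 45.3%.

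Levels of different genes are levels of different probes, which bind with different strength, so the order is an order of brightness and not of molecules. For the 9010 genes with more than 1 probe set, the brightest and the second differed by a median of 1.39 on the log2 scale, and the brightest and the dimmest by 2.80. Of 6754 such genes over 7, 2121 had a second probe set that was not over 7. A dim value is therefore not absence. Rps16, a protein of every small ribosomal subunit, read 0.20 ± 0.59 on its only probe set, and Eif4a3, a core subunit of the exon junction complex, read 3.50 ± 2.01. In a whole retina, moreover, fewer cells of a type and less RNA per cell cannot be told apart.

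The retina was checked by 8 markers of the early eye field and of newborn ganglion cells, of which 6 were analysed here. All 6 were over 7, and 5 of them lay in the brightest 10% of genes. Atoh7 was at 14.83, 14.19 and 14.61 in WT embryos 1, 2 and 3, with rank 33 of all genes. Pax6, the eye field regulator kept in all progenitors, was at 13.87, 13.63 and 13.62. The homeobox genes Six3 (12.57 ± 0.30), Six6 (12.45 ± 0.06), Lhx2 (12.20 ± 0.23) and Rax (10.94 ± 0.13) followed, and no embryo lay apart from the others for any of these markers by over 1.

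On their brightest probe sets, genes for making proteins and for the cytoskeleton led the order. Among the 25 brightest genes, 14 encode ribosomal proteins and 6 belong to the list of actin and microtubule genes. Rps29, a protein of the small ribosomal subunit, headed the order with 15.40, 14.87 and 15.17. It was followed by Tpt1, the translationally controlled tumour protein (15.77, 14.61 and 15.05), by Eef1a1, the factor that brings aminoacyl-tRNA to the ribosome (15.65, 14.60 and 15.06), and by Tuba1a, the α-tubulin of newborn neurons (15.55, 14.59 and 15.01). Rpl38, Rps3a1, Rps28, Rplp2, Rpl13a and Rps10 of the ribosome, Tmsb10, a thymosin that binds actin monomers, Stmn1, which binds tubulin dimers, and Actg1, cytoplasmic γ-actin, lay between 14.72 and 14.99. Plagl1, an imprinted zinc finger gene, was the only sequence-specific transcription factor of the 25, at 14.61 ± 0.43.

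Gaps between neighbours in this order were small beside the SD of each gene. The largest gap between 2 successive genes among the 25 was 0.10, while their SD ran from 0.21 to 0.62, and in none of the 24 neighbouring pairs was the gap larger than the SD. Embryo 1 was the highest in 24 of the 25 and embryo 2 the lowest in 24, so much of the SD is a shift shared by these genes. Over the 100 brightest genes the median SD was 0.31, and 0.11 once the arrays were given the same distribution of signals. Successive means in a sorted order are also close by construction. Gaps set against these SDs are therefore no test of the order. Of the 25 genes, 16 were among the 25 brightest of each embryo taken alone, and of the 100 brightest, 78. Most of these probe sets carry the suffixes _s_at, _x_at or _a_at, by which Affymetrix marks sets whose probes can match more than 1 transcript: 22 of the 25 and 81 of the 100 brightest, against 20.1% of all genes. Signals of ribosomal protein, tubulin and actin genes, whose families hold near-identical copies and pseudogenes, are uncertain for that reason. Without these probe sets 12 of the 25 genes still had a level, and Eef1a1, Rplp0 and Tmsb4x kept theirs, but Tpt1 fell from 15.14 to 3.22, Tmsb10 from 14.96 to 4.42 and Rpl41 from 14.62 to 8.79. Of the 25, 4 were then among the 25 brightest, which held 3 ribosomal protein genes. Those of the 12 that were no longer among the 25 brightest left by a lower reading. The genes of the 25 without such a level have suffixed probe sets alone and so left by removal. With the median of a gene's probe sets, suffixed ones kept, 13 of the 25 stayed among the 25 brightest. The lead of ribosomal genes was thus not seen without suffixed probe sets, where many of these genes are not measured.

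**Figure D1:**
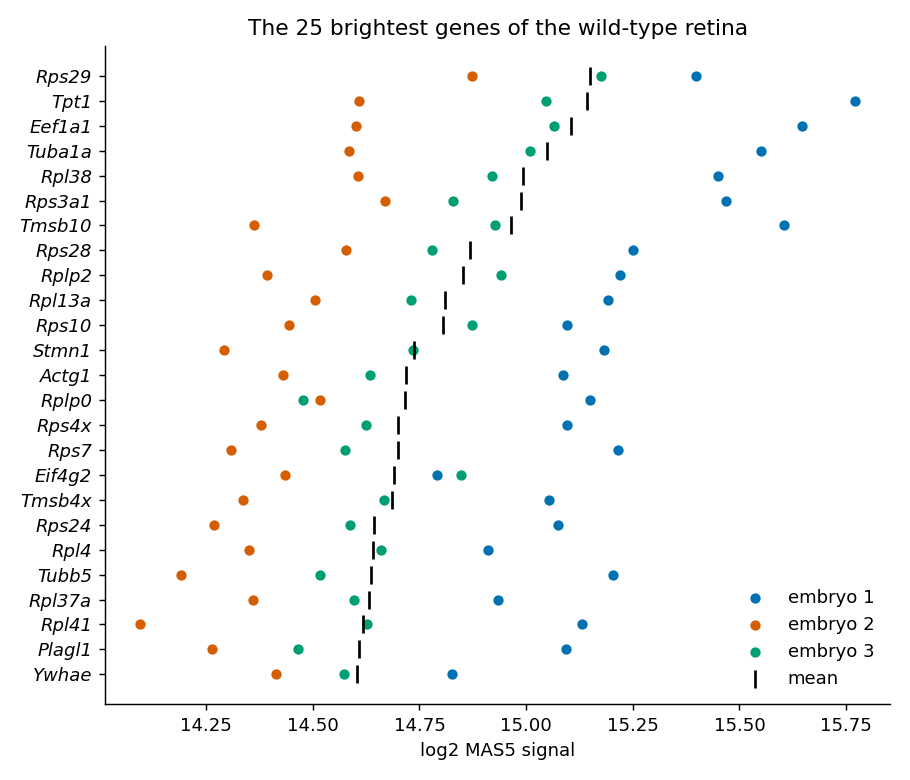
Log2 MAS5 signal (x axis) of the 25 brightest genes (y axis, ordered by mean); coloured points are the 3 WT embryos and black bars the means. Embryo 1 lies highest in 24 of 25 genes and embryo 2 lowest in 24, and successive means differ by at most 0.10.

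Many messengers of the translation machinery begin with a tract of pyrimidines, which lets mTOR signalling control their translation. The start sites given by RefSeq (GRCm38.p6) were therefore read for a run of at least 8 C or T letters within 15 bases on each side. Such a run stood at 14.65% of the 14452 genes with a start window and at 45.45% of the ribosomal protein genes (20 of 44). It stood at 25.53% of the translation factors, but at 12.24% of those among the 100 brightest genes that are not ribosomal proteins. Of the 25 brightest genes, 22 had a window and 8 of them held a run. They are shown as 30 bases centred on the start, with the run in capitals, on the strand of the gene.
Eef1a1, chr9:78481710-78481739, minus strand: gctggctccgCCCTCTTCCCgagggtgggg
Tuba1a, chr15:98953487-98953516, minus strand: ctgtaagaagcaacaCCTCCTCCTCgcctc
Rpl38, chr11:114668565-114668594, plus strand: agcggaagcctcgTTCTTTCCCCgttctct
Rplp2, chr7:141447636-141447665, plus strand: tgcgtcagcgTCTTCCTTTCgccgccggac
Rpl13a, chr7:45128731-45128760, minus strand: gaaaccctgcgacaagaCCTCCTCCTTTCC
Rps10, chr17:27635230-27635259, minus strand: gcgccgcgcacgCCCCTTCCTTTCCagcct
Rps24, chr14:24490663-24490692, plus strand: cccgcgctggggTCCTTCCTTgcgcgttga
Rpl4, chr9:64173372-64173401, plus strand: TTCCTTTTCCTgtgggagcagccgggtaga
These letters are a description of the annotated starts. A run counted here need not cover the start: in Rpl4 it lies before the start and in Rpl13a after it. Where transcription begins in the retina was not measured.

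The letters before the start also differed along the order of brightness. The median number of CG pairs in the 250 bases before the start was 3 for genes up to a level of 3, 8 between 5 and 7, 16 between 7 and 9, and 21 above 13. The letters TATAAA (either strand, within 60 bases before the start) stood at 9.01% of the genes up to a level of 3, at 1.58% between 9 and 11, and at 5.20% above 13, against 4.25% of all. For a gene with several annotated starts the highest CG count was taken, and TATAAA was counted at any of them. Low and high genes differ also in the kind of gene they are, and these shares come from the same annotation for all embryos.

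Grouped by function, the lists of highest median were of the cytoskeleton, the ribosome, protein folding and splicing. The text gives for each list how many members were over 7, against 57.2% of all genes, and how many lay in the brightest 10% of genes, against 10% by construction. All 16 actin and microtubule genes lay in the brightest 10%, with a median of 14.41. Of 50 ribosomal protein genes, 47 were over 7 and 37 in the brightest 10%, with a median of 14.29; the low end of that list holds Rpl3l, the muscle form of Rpl3, at 2.78 ± 0.74. Without suffixed probe sets the ribosomal median was 9.45, over the 26 genes left, and the list fell from place 2 of 54 to place 22. The actin and microtubule list then stayed the highest at 13.08. With the median of a gene's probe sets the ribosomal list was the highest at 13.73, and the actin and microtubule list was next at 13.17. Heterogeneous nuclear ribonucleoproteins and SR proteins, which bind and splice pre-mRNA, had 28 of 29 members over 7 and 26 in the brightest 10%, led by Hnrnpa2b1 at 14.29, 14.02 and 14.40. Chaperones, among them Hspa8 (14.40, 14.22 and 14.51) and Hsp90aa1 (14.29, 14.12 and 14.49), had 16 of 20 in the brightest 10%.

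Energy metabolism and protein turnover came next. Of 79 genes of the respiratory chain and ATP synthase, 74 were over 7 and 62 in the brightest 10% (median 12.29), led by Uqcrb of complex III and Cox6a1 of complex IV. Of 14 glycolytic genes 13 were over 7, and Ldha, which turns pyruvate into lactate, was the brightest at 13.96 ± 0.23. Of 39 proteasome subunits 35 were over 7; the dimmest were Psma8, the form of the testis, and Psmb11, the form of the thymus, at 4.03 ± 0.73 and 3.72 ± 0.39. The 58 translation factors had a median of 11.27, with 55 over 7.

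Genes of the cell cycle were bright as a whole. All 21 replication genes and all 19 mitotic genes were over 7, with medians of 12.13 and 11.57. Pcna, the sliding clamp of DNA polymerase, was at 14.73, 13.92 and 14.05, and Mcm7 of the replicative helicase at 13.63, 13.38 and 13.28. Top2a, the topoisomerase that untangles sister chromatids, was at 13.58 ± 0.16 and Mki67, the antigen of cycling cells, at 13.13 ± 0.14. Among 7 inhibitors of cyclin-dependent kinases, 5 were over 7: Cdkn1c at 11.94 ± 0.48 and Cdkn1b at 11.83 ± 0.48, which both act at cell cycle exit, were the brightest, and Cdkn2b and Cdkn2a of the senescence locus were the dimmest at 3.40 and 3.17. Of 23 chromatin regulators 22 were over 7 (median 12.07), led by the nucleosome-binding protein Hmgn1 and the histone variant H2az1. Of 16 RNA-binding proteins of neurons and stem cells 14 were over 7, and the others, Lin28a and Lin28b, known from earlier embryonic cells, were at 5.30 ± 0.13 and 4.28 ± 1.25.

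Lists of signalling pathways had medians between 8.82 and 10.35, above the 7.94 of all genes. With the median of a gene's probe sets, the Notch, Hedgehog, Wnt, BMP and FGF lists had medians between 7.01 and 8.03, against 6.91 for all genes. Of the Notch pathway 14 of 15 genes were over 7 (median 9.70), with Rbpj, the DNA-binding effector of Notch, the brightest at 12.08 ± 0.06 and Hey2 the dimmest at 4.97. Of the Hedgehog pathway 11 of 13 were over 7 (median 10.05): the receptor Ptch1 was at 11.74 ± 0.04 and the signal transducer Smo at 11.45 ± 0.13, while the ligands Ihh and Dhh were at 5.79 and 5.03. The Wnt list (17 of 23 over 7, median 8.82) was led by Ctnnb1, β-catenin, which also serves cell adhesion, at 14.32 ± 0.30. The BMP and TGF-β list (19 of 24, median 10.35) was led by the receptor Tgfbr1 at 12.87 ± 0.07 and by Smad4, the common mediator, at 12.60 ± 0.17. In the FGF list 13 of 16 were over 7 (median 9.53), and Fgf8 was the dimmest at 3.51 ± 1.77. Of 25 axon guidance genes 23 were over 7, but 1 alone lay in the brightest 10%: Dcc, the netrin receptor, at 11.72, 12.26 and 12.21. The hypoxia list (6 of 8 over 7) had a median of 9.57, with Hif1a at 13.57 ± 0.24 and its secreted peptide target Adm at 4.77 ± 0.04. Of 10 apoptosis genes 9 were over 7, led by Mcl1, which holds off cell death, at 11.82 ± 0.15.

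Synaptic genes were split. Of 17 genes of synaptic vesicles and SNARE proteins, 16 were over 7, with Snap25 (12.20 ± 0.20) and Syt1 (11.82 ± 0.14) the brightest. The vesicular glutamate transporter Slc17a7, which bipolar cells and photoreceptors use, was the one below, at 4.45 ± 0.53. Of 19 receptor genes for glutamate 9 were over 7 (47.4%, near the 57.2% of all genes; median 6.84). The receptors of GABA and glycine were dimmer: of 17 genes, their anchor included, 4 were over 7 (median 5.23), led by the anchor Gphn at 9.91 ± 0.15. Of 16 immediate early genes 4 were over 7, with Dusp1, a phosphatase of MAP kinases, at 11.34 ± 0.17, Fos at 5.17, 3.40 and 6.62, and Arc, the activity-induced gene of mature synapses, at 1.62 ± 0.44.

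**Figure D2:**
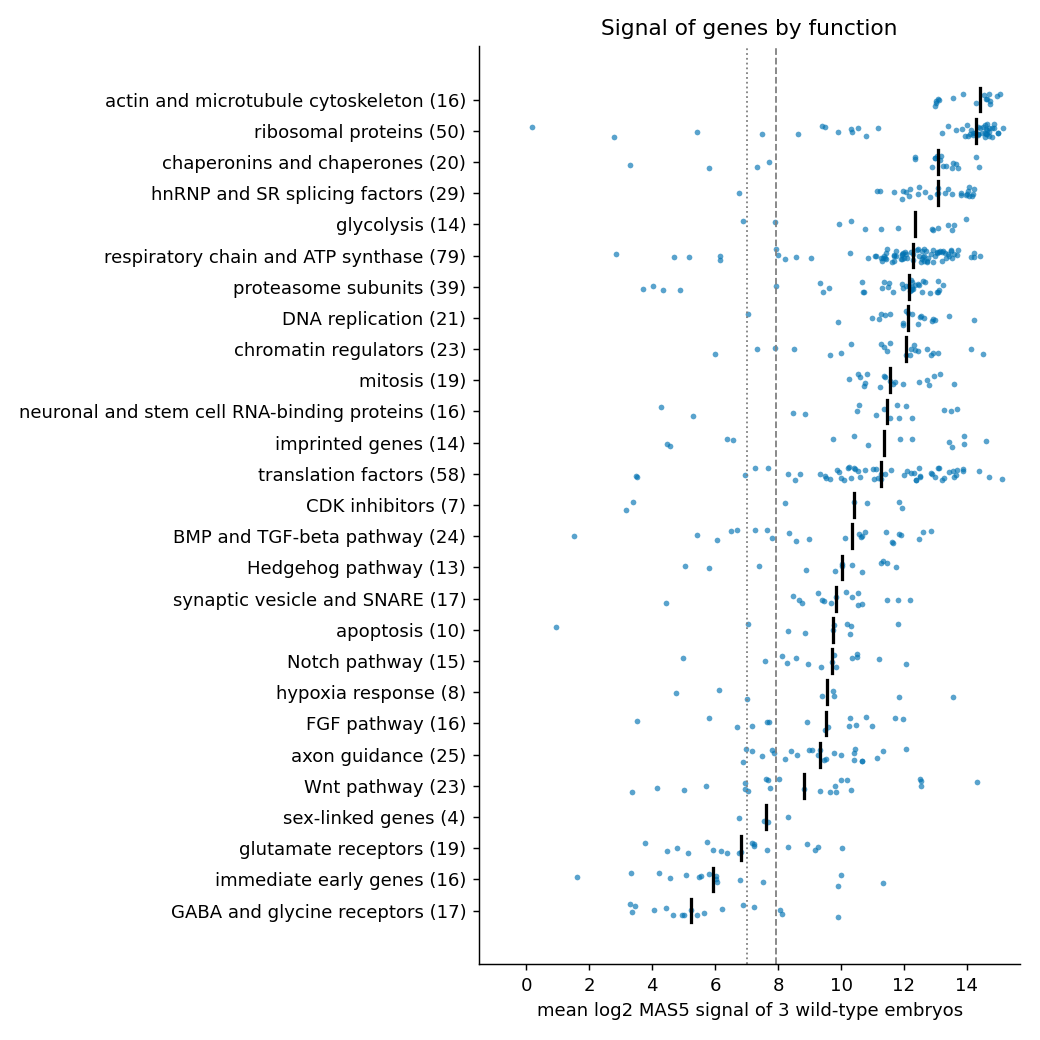
Mean log2 MAS5 signal (x axis) of the genes of each function list (y axis, number of genes in brackets); each point is 1 gene, black bars are list medians, the dotted line is the limit of 7 and the dashed line the median of all genes. The cytoskeleton and ribosomal lists have medians of 14.41 and 14.29, and the GABA and glycine receptor list has the lowest at 5.23.

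Among the retinal cell classes the list medians ran from the progenitors, the brightest, down to bipolar cells and the genes of mature photoreceptors. All 15 markers of retinal progenitors were over 7 and 10 lay in the brightest 10% of genes, with a median of 12.30. Ccnd1, the cyclin on which retinal growth depends, led with 14.94, 14.08 and 14.39, followed by the secreted Wnt modulator Sfrp2 (14.30, 13.66 and 14.22) and by Fgf15 (14.32, 13.71 and 13.82). The dimmest of the progenitor list were Hes5, described further on, and the cell surface protein Prtg at 8.94 ± 0.22.

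The neurogenic progenitors, cells about to leave the cycle, had all 13 markers over 7 and 7 in the brightest 10% (median 11.79). After Atoh7 came Sox4, at 14.41, 14.32 and 14.36, and its relative Sox11 at 13.63 ± 0.26, both of which act in newborn neurons. Hes6, a helix-loop-helix protein that opposes Hes1, was at 12.93 ± 0.08. The Notch ligand Dll4 was the dimmest, at 8.34 ± 0.09. Of the markers, Sox4 stood out for the small spread of its brightest probe set (SD 0.05), though its other 7 probe sets had means from 3.31 to 12.51.

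Ganglion cell markers were nearly as bright. Of 25, 23 were over 7 and 13 in the brightest 10%, with a median of 11.38. Nefl, the light neurofilament of long axons, was at 14.52, 13.75 and 14.18, Stmn2 at 13.82, 13.30 and 13.79, the neuronal tubulin Tubb3 at 13.55, 13.36 and 13.77, and the LIM factor Isl1 at 13.35, 13.22 and 13.27. Sncg, synuclein γ of ganglion cells, was at 12.67 ± 0.17, and Irx4 and Scrt2 were at 8.89 ± 0.10 and 8.81 ± 0.14. The 2 markers below 7 were Pou4f3 at 6.14 and Thy1, a surface protein of mature ganglion cells, at 5.74. Opn4, melanopsin of the photosensitive ganglion cells, was at 6.17, 6.75 and 7.30.

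Photoreceptor precursors came lower, with 8 of 10 markers over 7, 4 in the brightest 10% and a median of 9.54. Neurod1 was at 13.06, 12.93 and 13.28 and Rorb at 12.61, 12.59 and 13.39. Otx2, which sets the photoreceptor fate, was nearly the same in each embryo, at 12.39, 12.41 and 12.40. Prdm1, which holds back the bipolar fate, was at 11.42 ± 0.13. The cone gene Thrb was at 6.34 ± 0.30, and Rcvrn, a calcium sensor of mature photoreceptors, at 2.06 ± 0.53.

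The other early interneurons were dimmer still. The 7 horizontal cell markers had 4 over 7 (57.1%, near the 57.2% of all genes) and none in the brightest 10%. Their median was 8.69, above that of all genes (7.94). With the median of a gene's probe sets in place of the brightest the list median was 6.33, below that of all genes (6.91) and of the amacrine list (7.91), and without suffixed probe sets it was 7.48, slightly below that of all genes and below the amacrine list, so that its place turns on the choice of probe set. Onecut2 was at 10.66, 10.90 and 10.67. Onecut1 itself, the gene disrupted in the other genotype of the series, was at 9.25, 8.76 and 9.00, rank 7033 of the 18193 genes. Septin4 was at 9.58 ± 0.25, while Calb1, Lhx1 and Onecut3 were below the limit at 6.28, 5.95 and 2.35. Of 17 amacrine markers 10 were over 7 (58.8%, also near the share of all genes) and none was in the brightest 10%. The amacrine median of 7.91 was near that of all genes. Neurod4 (11.34 ± 0.14), Foxn4 (10.90 ± 0.13) and Ptf1a (10.84, 11.03 and 10.67), which act in the cells that give rise to amacrine and horizontal cells, were the brightest. Tfap2b, of newborn amacrine cells, was at 9.97 ± 0.09. The glycine transporter Slc6a9 was at 7.84 ± 0.46, and Gad1, an enzyme that makes GABA, was at 4.50, 5.20 and 4.36, while its relative Gad2 was at 8.82, 8.93 and 8.47.

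Markers of the cell types made last were mostly dim. Of 19 genes of mature phototransduction 1 was over 7, Gnat2, the α-subunit of cone transducin, at 8.99, 8.76 and 8.65, and the list median was 5.02. The cone phosphodiesterase Pde6c was at 6.59, 6.84 and 4.63. Of 10 bipolar cell markers 1 was over 7, Prkca, a protein kinase C that is also found in many other cells, at 8.29 ± 0.36; Pcp2 and Car8 were at 5.88 and 5.62. Of 12 Müller glia markers 7 were over 7 (58.3%, near the 57.2% of all genes) and 3 in the brightest 10%, but the bright ones are shared with progenitors: Vim, the intermediate filament of radial cells, was at 13.83 ± 0.16, Dkk3 at 13.04 ± 0.16 and Glul, glutamine synthetase, at 12.21 ± 0.27. Cd44, Gfap and Aqp4 were at 6.58, 5.37 and 4.53.

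Genes that divide the retina into territories had 11 of 13 over 7 (median 9.86). Efnb2, an ephrin of the dorsal side, was at 12.51 ± 0.09, and the retinoic acid enzymes Aldh1a1 (dorsal) and Aldh1a3 (ventral) were at 11.96 ± 0.37 and 11.39 ± 0.19. Cyp26a1, which breaks retinoic acid down in a band between them, was at 11.46, 11.27 and 10.29. Tbx5, a dorsal factor, was at 7.99, 7.25 and 5.51 and so lowest in embryo 3. Of 5 genes of the optic stalk and ciliary margin 2 were over 7, and all 5 were highest in embryo 3; Otx1, of the ciliary margin and pigment epithelium, was at 6.10, 6.71 and 7.84.

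**Figure D3:**
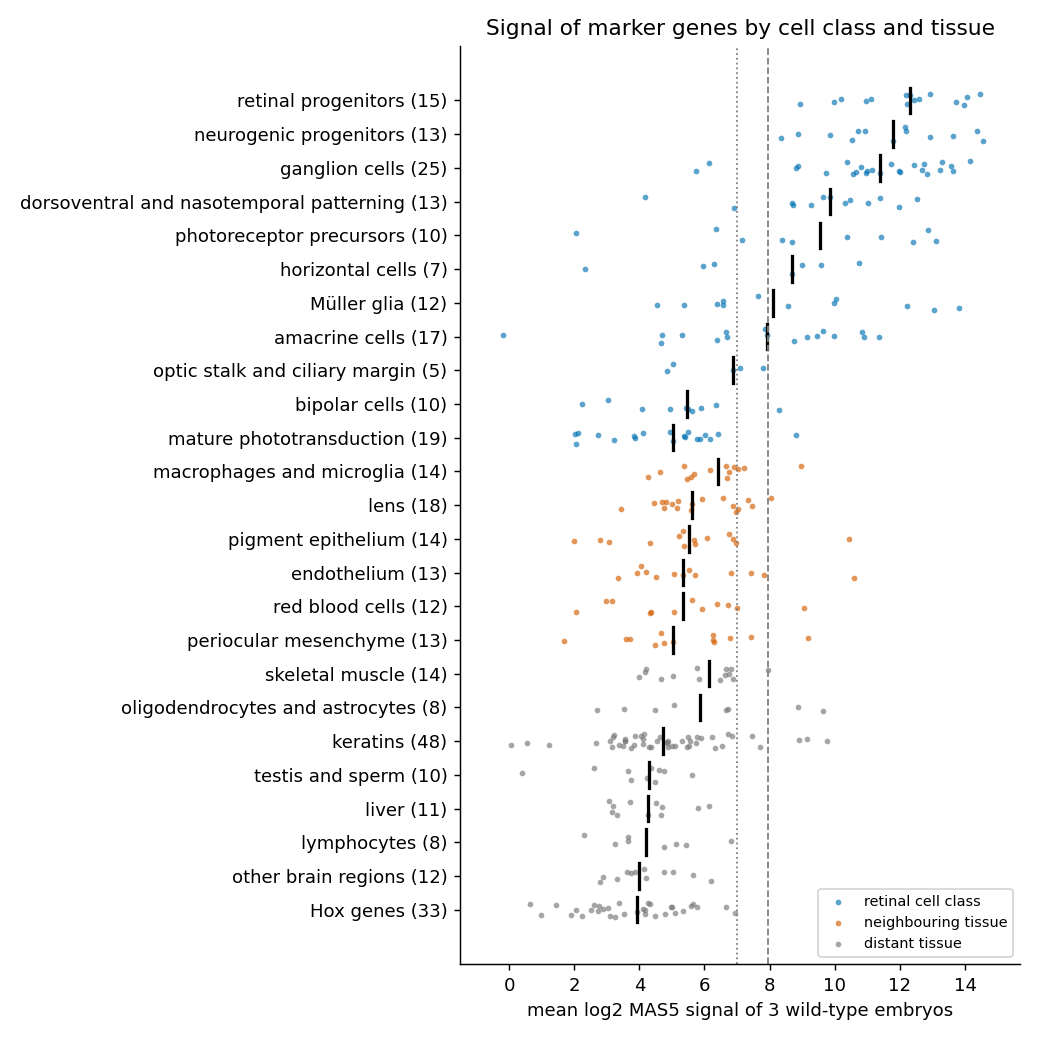
Mean log2 MAS5 signal (x axis) of the markers of each retinal cell class, neighbouring tissue and distant tissue (y axis, number of genes in brackets); each point is 1 gene, black bars are list medians, the dotted line is the limit of 7 and the dashed line the median of all genes. Progenitor, neurogenic and ganglion cell lists have medians of 12.30, 11.79 and 11.38, and no neighbouring or distant tissue has a median above 6.41.

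Tissues that are not part of the retina gave the lower bound of the scale. No gene had a mean over 7 in the lists of 33 Hox genes, 38 olfactory receptors, 11 liver genes and 8 lymphocyte genes. The same held for 10 genes of testis and sperm and 12 regulators of other brain regions. The medians of these lists lay between 3.70 and 4.31. In single embryos, 1 Hox gene was over 7 in embryo 2 and 2 in embryo 3, where 1 stood above both others by over 1. In the lymphocyte list, 1 gene was over 7 in embryos 1 and 2. The brightest of the Hox list, Hoxa5, was at 6.93 ± 0.26, and of the liver list Apoa2 at 6.15 ± 0.49. Of 8 genes of oligodendrocytes and astrocytes, Mbp (9.65 ± 0.08) and Cnp (8.88 ± 0.04) were over 7, while Mog, Mag and S100b, which are more restricted, were at 2.71, 3.54 and 4.47. Of 48 keratins 5 were over 7, led by Krt10 at 9.76 ± 0.19.

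Spread among the embryos depended on level. The median SD was 0.98 for genes up to a level of 3, 0.41 between 5 and 7, 0.18 between 9 and 11, 0.17 between 11 and 13, and 0.22 above 13. Over genes with a mean over 7 the median SD was 0.20 and 90% of genes had an SD of at most 0.42. The range over the 3 embryos was larger than 1 in 519 of these 10415 genes (4.98%); between levels of 3 and 5 it was larger than 1 in 76.7% of genes. Pearson's r across the genes over 7, which are not independent replicates, was 0.973 for embryos 1 and 2, 0.960 for 1 and 3, and 0.963 for 2 and 3.

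At the bright end, the larger SD went with higher signals in embryo 1. Among the 100 brightest genes, 99 were higher in embryo 1 than in embryo 2, by a median of 0.60, and embryo 3 was higher than embryo 2 by a median of 0.24. From rank 501 to 2000 the median difference between embryos 1 and 2 was 0.08. The ribosomal protein medians were 14.67, 14.02 and 14.22 in embryos 1, 2 and 3, with embryo 1 the highest in 38 of 50 genes. When the 3 arrays were given the same distribution of signals (quantile normalization), these medians became 14.36, 14.28 and 14.23 and embryo 1 was the highest in 17 of 50. The order of embryos for ribosomal and other very bright genes thus turns on the scaling.

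The 10 genes of smallest spread over 7 had SDs of at most 0.01. They include Ptpn12, a tyrosine phosphatase, at 12.14, 12.15 and 12.15, Ring1, a Polycomb subunit, at 9.24, 9.24 and 9.23, Mark3, a kinase of microtubule-associated proteins, at 11.15 ± 0.01, Atg7, which acts in autophagy, at 8.71 ± 0.01, and the histone variant H2ax at 12.62 ± 0.01. With 3 values a gene, no stability is read from so small an SD.

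To compare spreads between lists, the SD of each gene was ranked among genes within 0.5 of its level. The median rank of a list was highest, at 99.8% and 99.7%, for the sex-linked genes and the lens, followed by skeletal muscle (98.0%), periocular mesenchyme (95.2%), pigment epithelium (82.9%) and imprinted genes (82.5%). It was lowest for regulators of other brain regions (23.3%) and for splicing factors (28.8%). Neurogenic progenitors (36.0%) and photoreceptor precursors (42.9%) lay below the middle, ganglion cells (51.8%) at it, and retinal progenitors (68.6%) above it.

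**Figure D4:**
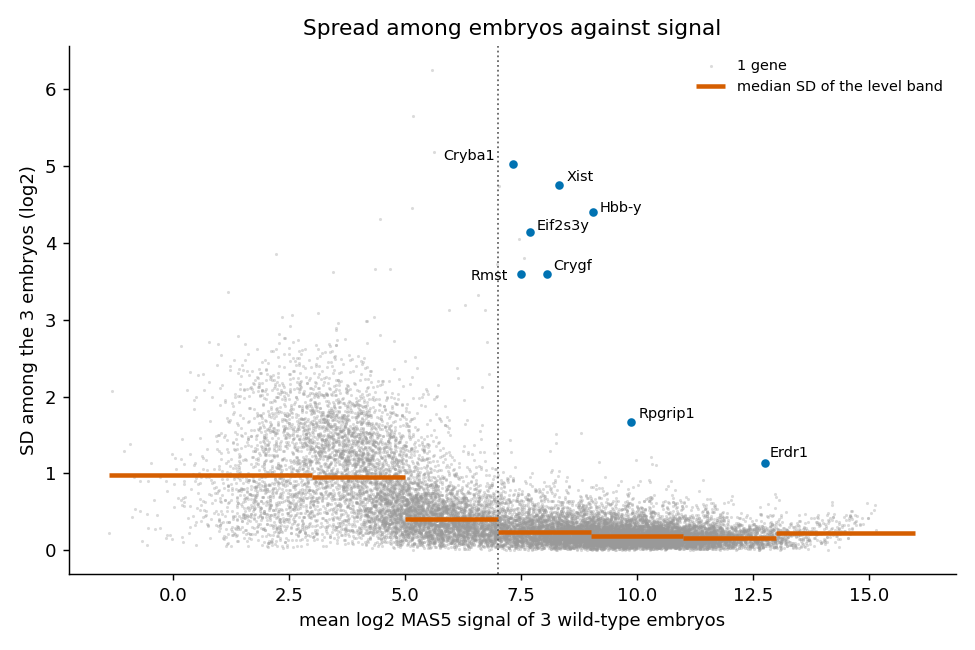
SD among the 3 WT embryos (y axis, log2) against mean log2 MAS5 signal (x axis) of all 18193 genes; each grey point is 1 gene, orange lines are the median SD of each level band, the dotted line is the limit of 7 and blue points are named genes. The median SD is 0.98 at the dim end and 0.17 between 11 and 13, while Cryba1, Xist, Hbb-y and Eif2s3y have SDs above 4.

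Embryo 2 differed from the others in the genes that mark sex. Xist, the RNA that coats the inactive X chromosome in female cells, was at 5.39, 13.81 and 5.79, and its other 2 probe sets were both over 11 in embryo 2 and gave at most 5.11 in the others. The Y-linked genes were the reverse: Eif2s3y, a subunit of an initiation factor, was at 10.36, 2.93 and 9.79, Kdm5d, a histone demethylase, at 9.58, 3.17 and 9.91, and Uty at 8.21, 3.64 and 8.46. Embryo 2 thus had a high Xist and low Y-linked signal and embryos 1 and 3 the opposite, with no overlap; the labels give no sex. Ftx, a non-coding RNA that lies near Xist on the X chromosome, was at 7.35, 8.71 and 7.38. Kdm6a, a demethylase gene that escapes X inactivation and is the X partner of Uty, was named after its values were seen; it was at 10.02, 11.29 and 10.51. Over 358 X-linked genes over 7, embryo 2 exceeded the mean of the others by a median of 0.05 and was the highest in 36.9%, against -0.01 and 27.9% for 10037 autosomal genes.

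Embryo 2 stood apart in few genes. It lay above both others by over 1 in 7 of 10415 genes (0.0672%), Xist and Ftx included, and below both in 13 (0.125%), Eif2s3y and Kdm5d included. In 3 of the 13, Cryba1, Crybb1 and Crygf, embryo 1 was not over 7 either and the mean passed 7 through embryo 3 alone, so that 10 were measured on both sides. Rpgrip1, a protein of the connecting cilium of photoreceptors, was at 9.58, 11.69 and 8.38; on the next brightest of its 4 probe sets the values were 8.86, 8.85 and 6.86, so that embryo 3 was the lowest on both, while embryos 1 and 2 were alike on the second. The dimmer sets were not over 7 in any embryo. Robo2, a receptor of Slit proteins in axon guidance, was at 7.65, 8.67 and 7.09. Of the 10, Eif2s3y, Kdm5d and the globin gene Hbb-y lay furthest below, and the next was Megf11, a cell surface protein that spaces retinal interneurons, at 8.33, 7.05 and 9.11.

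Embryo 1 lay above both others by over 1 in 8 genes (0.0768%) and below both in 55 (0.528%). The genes furthest above were Erdr1 (14.06, 11.97 and 12.24) and Mid1, a ubiquitin ligase of microtubules (9.55, 7.78 and 7.03). These lie next to each other at the end of the X chromosome, Mid1 at chrX:169685199-169990798 and Erdr1 at chrX:170010526-170018797 (GRCm38.p6). Another probe set of Mid1 was below 7 in each embryo (5.27, 3.43 and 3.04), and the remaining Mid1 set and the other Erdr1 set were not apart by over 1. Of the genes furthest below, Hes5, a direct target of Notch in progenitors, was at 8.64, 10.85 and 10.45, and on its other probe set at 9.19, 9.96 and 9.51. It was thus lowest in embryo 1 on both, by 1.81 to the nearest embryo on the one and by less than 1 on the other. Ddr1, a collagen receptor, was at 10.36, 11.88 and 12.02, and Rnasek, on chromosome 11, at 6.61, 8.56 and 9.59. The other Notch target of the progenitor list, Hes1, was at 11.00, 11.05 and 11.30.

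Lens genes were high in embryo 3 and dim in the others. Crystallins are the soluble proteins that make the lens transparent. Cryba1 was at 5.70, 3.32 and 12.96, Crybb1 at 5.43, 3.31 and 12.36, Crygb at 4.87, 5.38 and 12.13, and Crygf at 6.51, 5.49 and 12.15. Cryga (2.66, 1.33 and 12.75), Crygd (2.10, 1.74 and 11.69) and Cryaa, α-crystallin (3.04, 2.26 and 11.59), had the same pattern. Of 18 lens genes, 11 were over 7 in embryo 3 and above both others by over 1, a condition met by 126 of all 18193 genes (0.693%), and 15 were highest in embryo 3. The summed linear signal of the list was 594 and 458 in embryos 1 and 2 and 41199 in embryo 3. None of the 18 genes was over 7 in embryo 1 or in embryo 2.

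Not all lens genes behaved alike. Crybb3 (11.26 in embryo 3), Cryba2 (10.32), Cryba4 (10.27) and Lim2, a membrane protein of the lens fibre (8.06), complete the 11. Mip, the aquaporin of lens fibres, was at -0.24, 3.57 and 6.99. Crybb2, Cryab and Bfsp2 were below 7 in each embryo, at 5.89, 5.62 and 5.26 in embryo 1 and 3.63, 3.94 and 4.75 in embryo 3. Bfsp1, Gja3 and Crygs were at 6.82, 5.54 and 5.97 in embryo 3. The γ-crystallin genes are near-identical copies, so that probes of one may bind the others and their levels are not independent.

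Since these genes were high together, the 60 bases before their starts (RefSeq, GRCm38.p6) are shown for the 7 crystallins that hold TATAAA or TATATA there, in capitals, and that were over 7 in embryo 3.
Cryga, chr1:65103364-65103423, minus strand: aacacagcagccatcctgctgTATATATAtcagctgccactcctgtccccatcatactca
Crygb, chr1:65082291-65082350, minus strand: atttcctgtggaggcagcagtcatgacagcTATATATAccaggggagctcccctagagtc
Crygd, chr1:65063441-65063500, minus strand: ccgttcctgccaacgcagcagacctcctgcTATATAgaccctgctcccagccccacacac
Crygf, chr1:65926462-65926521, plus strand: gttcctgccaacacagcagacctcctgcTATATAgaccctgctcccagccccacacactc
Cryaa, chr17:31677871-31677930, plus strand: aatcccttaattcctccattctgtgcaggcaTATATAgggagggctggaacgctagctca
Cryba1, chr11:77725294-77725353, minus strand: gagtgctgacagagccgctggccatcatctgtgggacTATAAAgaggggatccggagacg
Crybb1, chr5:112255760-112255819, plus strand: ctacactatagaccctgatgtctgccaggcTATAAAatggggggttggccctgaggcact
One of these motifs, searched on both strands at any annotated start (TATATA is its own reverse complement), stood at 8 of 17 lens genes with a window and at 5.50% of all genes. The 8 include Crygs, which was not over 7, and the windows of Crybb3, Cryba4 and Cryba2, which were over 7 in embryo 3, held neither motif. Other lists held them too: either motif stood at 18 of 32 keratin genes (56.25%) and at 4 of 13 skeletal muscle genes (30.77%). TATATA was added to the search after these sequences had been read, so the count of either motif is a description of them. TATAAA alone stood at 3 of 17 lens genes (17.65%) and at 4.25% of all genes. Crygd and Crygf share an unbroken run of 45 of the 60 letters, whereas other pairs of the 4 γ-crystallins share at most 10.

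Blood, muscle and connective tissue genes were also highest in embryo 3. Hbb-y, a β-like globin of primitive red cells, was at 8.09, 5.22 and 13.85, and its other probe sets gave 13.83 and 12.46 in embryo 3. Hba-x, the embryonic ζ-globin, was at 5.97, 4.05 and 10.15, Hbb-b2 at 6.62, 5.84 and 8.50, and Alas2, the first enzyme of haem synthesis in red cells, at 1.70, 2.83 and 8.53. Of 12 red cell genes 6 were over 7 in embryo 3 and above both others by over 1, and the summed signal was 681, 370 and 17128. In embryo 3 that sum was mostly the signal of Hbb-y. Globin genes are close copies, Hba-a2 was at 6.73, 6.44 and 6.02 and Hba-a1 at 2.76, 2.14 and 4.62, and several adult globin genes are not analysed here. Gata1 and Klf1, regulators of red cell precursors, were at 5.06 and 5.92.

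Of 14 skeletal muscle genes 13 were highest in embryo 3 and 7 met the same condition: Actc1 was at 5.33, 5.65 and 9.44, Acta1 at 5.19, 5.67 and 9.09, and Myl1 at 1.27, 4.22 and 8.53. Of 13 genes of periocular mesenchyme 10 were highest in embryo 3 and 5 met it, among them the collagens Col3a1 (5.10, 3.88 and 9.90) and Col1a2 (8.89, 8.56 and 10.11). The summed signals were 766, 798 and 3382 for muscle and 946, 886 and 3479 for mesenchyme. Acta2, smooth muscle actin, was at 6.62, 6.24 and 8.91.

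Fewer genes of the pigment epithelium, endothelium and macrophages met the condition. Of 14 pigment genes 10 were highest in embryo 3, with list medians of 5.37, 5.08 and 6.43, and 2 met the condition, Pmel (6.98, 5.90 and 8.03) and Dct (6.21, 6.31 and 7.72), which both act in melanosomes, and the summed signal, 2321, 1953 and 2227, was mostly that of Rrh (10.75, 10.50 and 10.03). Rpe65, of the visual cycle in mature pigment epithelium, was at 2.00. No endothelial gene met the condition, and Kdr, the VEGF receptor that retinal progenitors also carry, was at 10.94, 10.68 and 10.13, while the vessel marker Pecam1 was at 3.35. Of 14 genes of macrophages and microglia 1 met it, Cx3cr1 at 6.55, 6.51 and 7.63, and Csf1r was at 8.96, 8.87 and 9.03 in the 3 embryos.

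**Figure D5:**
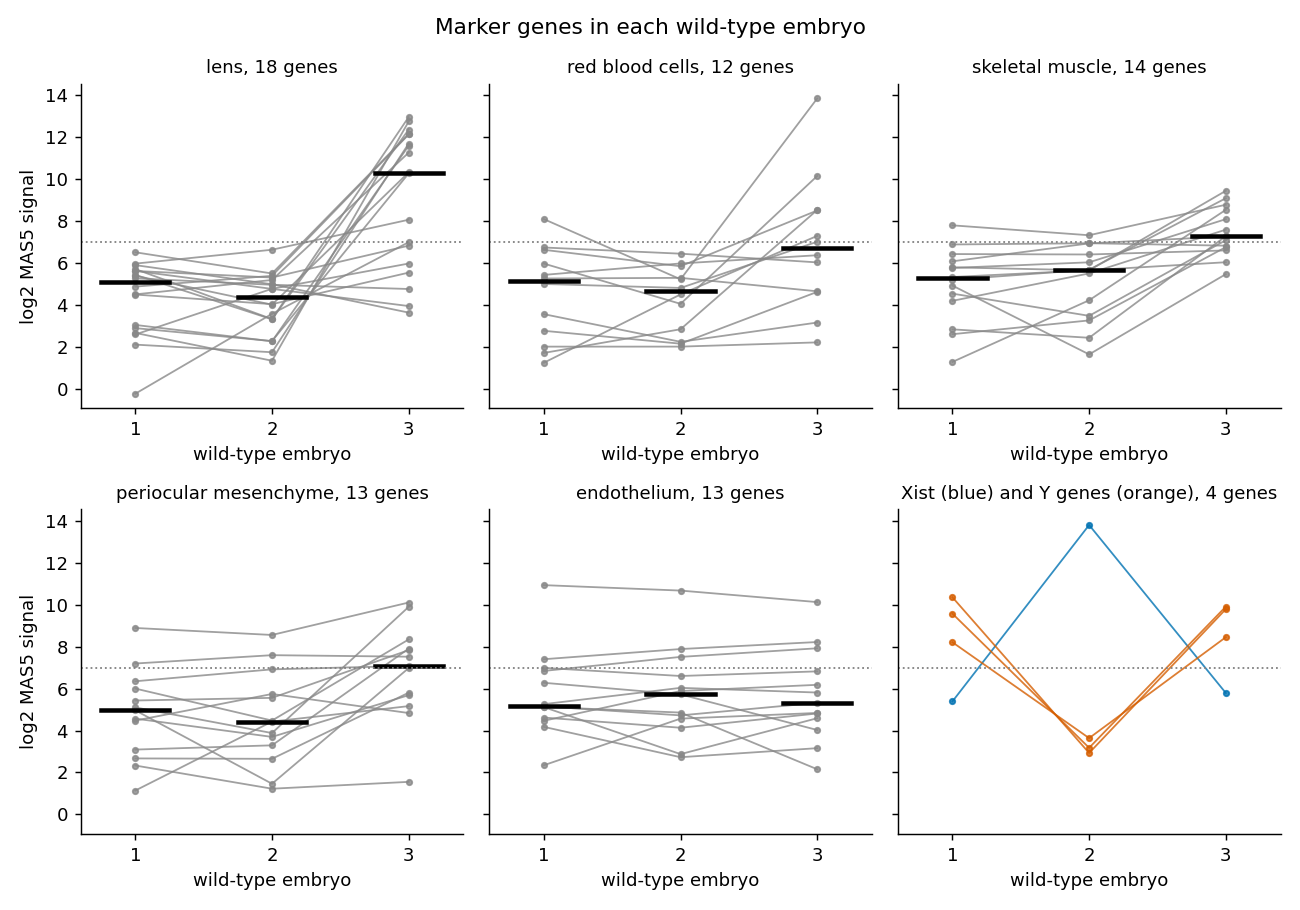
Log2 MAS5 signal (y axis) of marker genes of 5 tissues and of sex-linked genes in the 3 WT embryos (x axis); each line joins the values of 1 gene, black bars are list medians, and the dotted line is the limit of 7. Lens, red cell, muscle and mesenchyme medians are highest in embryo 3 (10.30, 6.69, 7.27 and 7.09), and Xist and the Y-linked genes are reversed in embryo 2.

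The main retinal lists had no gap of that size. No marker of retinal progenitors, neurogenic progenitors or ganglion cells was above both other embryos by over 1 in embryo 3. Only 0.693% of all genes met the condition, so finding none in lists of this size is near that share. Embryo 3 was the highest in 5 of 15, 6 of 13 and 13 of 25 of these markers, and in 6 of 10 markers of photoreceptor precursors. The medians of the progenitor, neurogenic and ganglion cell lists in embryos 1, 2 and 3 were 12.51, 12.31 and 12.45, 11.72, 11.72 and 11.95, and 11.35, 11.33 and 11.61. Among the other retinal lists, the 5 genes of the optic stalk and ciliary margin were all highest in embryo 3, where Otx1 met the condition (list medians 6.10, 6.71 and 7.79), as were 9 of the 13 genes of retinal territories, none of which met it. Under the condition of a mean over 7, embryo 3 lay above both others by over 1 in 49 genes (0.47%) and below both in 44 (0.422%). Those above include Ecel1, a neuronal endopeptidase, at 8.29, 7.60 and 10.52. The gene furthest below was Rmst, a long non-coding RNA of neural progenitors, at 9.25, 9.90 and 3.38; its other probe set read 7.26, 7.92 and 6.27, in the same order but with a smaller gap. Galc, a lysosomal enzyme of myelin lipids, was at 8.78, 9.31 and 6.67, a gap that its other, dimmer probe sets did not have. The other genes furthest below were Smim10l1 (10.76, 11.17 and 9.05), the non-coding RNA Snhg11 (8.60, 8.84 and 6.97), Zfp235 (7.82, 7.59 and 5.96) and the arginine methyltransferase Prmt8 (8.08, 8.13 and 6.54). The part that tissue beside the retina has in the spread of embryo 3 was not tested.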

How the data were processed

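RNA was extracted with TRI-Reagent from the retinas of single embryos, amplified with MessageAmp III and hybridised, 1 array per embryo. The deposited values are intensity on a linear scale, made by the authors with MAS5 (version not given in the sources used here). The 2% trimmed mean of each array was 500, so the arrays had been scaled alike. Log2 was taken of the 3 WT columns, with no further scaling, and the OC1-KO columns were not used.

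Of 45101 probe sets, 64 controls were left out. Of the others, 34945 have 1 gene symbol in the platform annotation (34741 matched to RefSeq by Entrez ID, none renamed), 932 have several and 9160 none. For each of the 18193 genes, the single-gene probe set of highest mean was taken. Genes without one are not analysed here, and some list members are not reported.

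Genes were described by mean, SD and range. An embryo stood apart where it lay over 1 above, or below, both others. The rule for names took the 25 brightest genes, the 15 of largest and 10 of smallest SD, the 6 furthest for each embryo and direction, the 4 brightest, 2 dimmest and 2 of largest SD in a list, and any gene of the study, sex-linked and neighbouring-tissue lists; a few names beyond it were chosen after their values were seen. The members and the 54 lists were chosen with earlier results of these data known. Alternatives were quantile normalization, median scaling, the median of a gene's probe sets, leaving out probe sets with suffixes, limits of 6 and 8, and leaving out each embryo. The scripts were tested on simulated data.

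On each array 45.5% to 46.2% of probe sets exceeded 7. The log2 difference between the 3′ and 5′ control probe sets of Actb was 1.10, 0.76 and 0.66 in embryos 1, 2 and 3, and that of Gapdh -0.26, -0.24 and -0.42. No probe set had the same value on 2 arrays. The number of arrays limits the precision. Scripts ran under pandas 2.3.3, with Python 3.11.15, and figures were drawn with matplotlib 3.10.9.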

Additional observations from a re-analysis of the deposited data

How the results depend on the processing

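No paired analysis was possible because 1 group alone is described. The number of genes over 7 was 10415; it was 8919 with the median of a gene's probe sets, 8958 without the probe sets marked by suffixes, 11840 and 8998 with limits of 6 and 8, and 10384 to 10483 without 1 embryo. Of the 54 lists, 31 had a median above that of all genes, and 31 to 33 under each alternative run. Each list's median moved by less than 0.05 with quantile normalization, but 41 moved by more than the spread of the embryos with the median of a gene's probe sets, where the largest shift was 2.89, of the imprinted list, and 29 without suffixed probe sets, where it was 4.84, of the ribosomal list. The 519 genes with a range over 1 became 858 and 335 with limits of 6 and 8, and 162 to 349 without 1 embryo. A range over fewer embryos cannot be larger, so the counts without 1 embryo fall largely by construction. The lowest of them, 162, was that without embryo 3 and the next, 196, that without embryo 1. With a limit of 6, embryo 1 stood above in 15 genes and below in 86, embryo 2 in 14 and 43, and embryo 3 in 107 and 78. With a limit of 8, embryo 1 stood above in 3, embryo 2 above in 3 and below in 8, and embryo 3 below in 27. Embryo 2 stood above in 4 genes with quantile normalization and in 11 with the median of probe sets, where embryo 3 stood below in 72. With a value over 7 in that embryo in place of a mean over 7, a choice made after seeing the data, embryos 1, 2 and 3 stood above in 21, 13 and 126 genes. Signals below about 7 vary more among embryos, so the tallies of the embryo in which a list's genes were highest, which include such signals, are descriptions.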

Other observations

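Imprinted genes, expressed from 1 parental copy, were bright on their brightest probe sets and variable. Of 14, 10 had a mean over 7 and 7 lay in the brightest 10% of genes, with a median of 11.37; it was 8.48 with the median of a gene's probe sets and 9.96 without suffixed probe sets. Plagl1, which regulates other imprinted genes, was at 15.09, 14.26 and 14.47 (mean 14.61, and 10.18 under either alternative), Gnas, the stimulatory G protein subunit, at 14.04, 13.67 and 14.03, Grb10, an adaptor that restrains growth signals, at 14.39, 13.69 and 13.63, and Ndn, a protein of postmitotic neurons, at 13.51, 13.33 and 13.73. Igf2, a growth factor made by mesenchyme and vessels among other tissues, was at 10.01, 9.55 and 11.67, and Dlk1, a surface protein of precursor cells, at 5.84, 5.69 and 7.58, both highest in embryo 3. Meg3, the maternally expressed RNA of the same cluster as Dlk1, was at 11.34, 11.08 and 10.17 and so lowest in embryo 3. Zim1 and Peg10 were the dimmest at 4.57 and 4.49.

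Of the 9160 probe sets that the annotation used here pairs with no gene, 2061 had a mean over 7, and they enter none of the counts by gene.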
